A study of Rattus norvegicus with 16 samples.

Results

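The entries described here are rows of 4 weekly small RNA count tables from rat left ventricle that carry the name of a miRNA of another species. They are the rows whose name starts neither with the rat prefix nor with a chromosome position, leaving out cel-miR-39-3p, a worm miRNA widely added to samples as a spike-in. The tables of weeks 2, 4 and 5 each held 149 such entries among 894 rows, and the table of week 7 held 104 among 631 rows. Together the tables held 155 of them among 1058 rows: 98 stood in all 4 tables, 51 in those of weeks 2, 4 and 5 only, and 6 in that of week 7 only.

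Rats with a 5/6 nephrectomy (5/6Nx), an operation that leaves a remnant of kidney tissue and serves as a model of chronic kidney disease with cardiac enlargement, were compared with rats after sham surgery. All were male Sprague Dawley rats on a 0.4% Dyets chow, operated on at 10 weeks of age, and their left ventricles were taken 2, 4, 5 or 7 weeks after surgery. Each of the 8 groups had 2 libraries, lettered A and B in the tables, and each library was made from a pool of 2 to 3 rats, so differences between single rats are not visible. In whole ventricle, fewer cells of a type and less RNA per cell cannot be told apart.

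A miRNA is cut from a hairpin precursor into short strands, named 5p and 3p for the arm they come from, and the bases near its 5′ end, the seed, guide it to target messages. Names begin with a code for the species, and many miRNAs have the same mature sequence in all mammals, so a rat read can match an entry of another species. Some precursors of other species lie on the opposite strand of a known miRNA gene, and others overlap repeats or fragments of ribosomal and transfer RNA.

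The sequences of the named miRNAs of other species were not used here. The rat miRNAs that they ran beside are shown instead, from RefSeq on build GRCr8, with the seed (bases 2 to 8) in capitals. The first set holds the rat rows whose counts kept a nearly fixed ratio to an entry of another species in all 16 libraries:
rno-miR-22-3p: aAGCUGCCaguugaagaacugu
rno-miR-26a-5p: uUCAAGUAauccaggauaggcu
rno-miR-103-3p: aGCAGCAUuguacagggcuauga
rno-miR-199a-3p: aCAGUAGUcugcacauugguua
rno-let-7b-5p: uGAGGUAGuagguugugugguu
rno-miR-423-5p: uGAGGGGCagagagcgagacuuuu
rno-miR-28-3p: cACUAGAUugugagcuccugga

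The second set holds rat miRNAs of RefSeq that had no rat row, while an entry of another species carried their name:
rno-miR-148a-3p: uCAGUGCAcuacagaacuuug
rno-miR-148a-5p: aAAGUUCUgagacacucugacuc
rno-let-7g-5p: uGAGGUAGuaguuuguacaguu
rno-miR-149-5p: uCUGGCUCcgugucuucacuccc
rno-miR-1247-5p: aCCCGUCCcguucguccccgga
rno-miR-1-5p: gCACAUACuucuuuauguaccc
rno-miR-709: gGAGGCAGaggcaagagga
Of the 27 rat names looked up, 25 had a RefSeq mature sequence. On GRCr8, miR-22-3p lies at chr10:60805387-60805408 (plus strand), miR-423-5p at chr10:62412317-62412340 (minus strand), miR-199a-3p at chr13:77116294-77116315 (plus strand), miR-148a-3p at chr4:81664447-81664467 (minus strand) and miR-149-5p at chr9:100861814-100861836 (plus strand). Rat let-7g-5p has the same seed as let-7b-5p, and miR-148a-3p has the same seed as rat miR-148b-3p, which did have a row:
rno-miR-148b-3p: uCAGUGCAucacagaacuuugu

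Of the 155 entries, 125 were named for a mammal, 22 for another animal, 4 for a plant and 4 for a virus. Mouse (49), human (44) and cattle (18) led by the first species named. The mammalian names held 99.5% of the counts summed over all entries and libraries, other animals 0.441%, viruses 0.0146% and plants 0.00352%. In 23 entries several species shared one row, with up to 21 names joined for miR-1.

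A rat row of the same number, letter and arm stood beside 3 of the entries. They were mmu-miR-1a-3p, oan-miR-133c and dre-miR-125a, and each held few reads against its rat row. A further 7 had a rat row of the same number and letter, 23 had one of the same number, and 122 had none. The 122 entries with no rat row of their number held 80.6% of the summed counts. RefSeq listed a rat miRNA of the same name for 10 entries, and in 7 of these no rat row of that name was present.

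Depth differed between weeks. Counts on rat rows ran from 1239829 to 3509916 in the 5/6Nx libraries and from 1600062 to 2795801 in the sham libraries of weeks 2, 4 and 5. At week 7 they were 1625699 and 1365890 in 5/6Nx, against 1073616 and 672077 in sham, so the week 7 sham libraries were the shallowest of the 16. The heart miRNAs checked were abundant: rat miR-133a-3p ranged over the libraries between 31788 and 64258 counts per 1000000 counts (CPM) and miR-1-3p between 1459 and 5775 CPM. Among miRNAs of other organs, miR-375-3p reached at most 9.42 CPM and miR-122-5p, listed at week 7 only, 3.56 CPM, miR-124-3p had no row, and miR-192-5p ran from 1354 to 2673 CPM. CPM are scaled to the library size of the rat rows and not to length.

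Summed over the entries, the counts amounted to 22.9% to 32.9% of the counts on rat rows in the 5/6Nx libraries of weeks 2, 4 and 5, and to 23.3% to 37.5% in the sham libraries. At week 7 they came to 37.0% and 37.6% in 5/6Nx, against 42.9% and 41.1% in sham. The 5/6Nx pools were below the sham pools at weeks 2 and 7, and the groups overlapped at weeks 4 and 5. The names bta-miR-3600, hsa-miR-486-5p and bta-miR-26c made up most of this. Without the 6 entries at a fixed ratio to a rat row, bta-miR-3600 among them, the order at week 2 was reversed. The 5/6Nx pools then had 8.52% and 7.87%, against 7.53% and 6.12% in sham. At week 7 the 5/6Nx pools stayed below, with 17.4% and 19.1%, against 23.0% and 23.3% in sham. With hsa-miR-486-5p left out as well, the rest came to 1.16% to 4.76% in 5/6Nx libraries and 1.22% to 3.58% in sham libraries. The groups then overlapped at week 7, with 1.23% and 1.16% in 5/6Nx, against 1.22% and 1.27% in sham. They also overlapped narrowly at week 2, with 4.757% and 3.535% in 5/6Nx, against 3.541% and 2.438% in sham. The plot of summed counts by library shows this make-up.

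**Figure D1:**
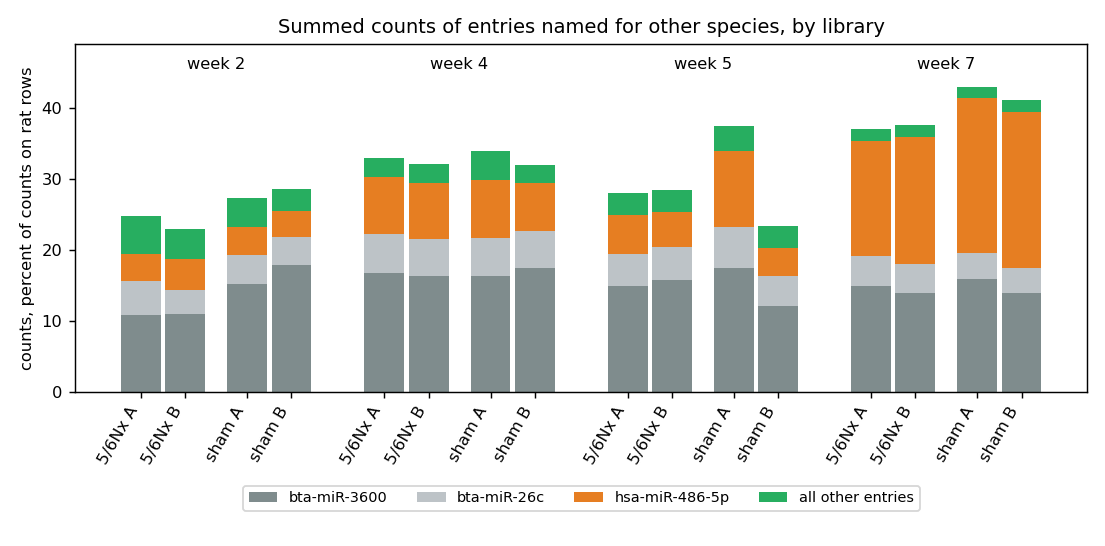
Bars stack the counts of bta-miR-3600, bta-miR-26c, hsa-miR-486-5p and all other entries as percent of the counts on rat rows, for each of the 16 libraries by week, surgery and pool letter. The hsa-miR-486-5p segment is 16.2% and 18.0% in the 5/6Nx pools and at least 21.8% in the sham pools of week 7, above every library of the other weeks.

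Levels of single entries spanned several orders of magnitude. Of the 98 entries in all 4 tables, 3 averaged 10000 CPM or more over the 16 libraries, 6 between 1000 and 10000, 23 between 100 and 1000, 39 between 10 and 100, and 27 under 10 CPM. Their median was 25.4 CPM, while the 317 rat rows listed in all 4 tables had a median of 54.9 CPM.

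The most abundant entry, bta-miR-3600, averaged 142642 ± 32176 CPM in 5/6Nx libraries and 160015 ± 21542 CPM in sham libraries (SD, n = 8 each, over all weeks). Its counts were 98.2% to 99.3% of those of rat miR-22-3p in the 5/6Nx libraries and 98.5% to 99.1% in the sham libraries. MiR-22 is a miRNA of heart and skeletal muscle that is known for a part in cardiac hypertrophy in mice. The largest departure from the median ratio over 16 libraries was 0.685%, and no other entry stayed within 5% of a fixed ratio to a rat row.

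The third most abundant, bta-miR-26c, had the same level in both groups within their spread, 45014 ± 7770 CPM in 5/6Nx and 45028 ± 6837 CPM in sham libraries (SD, n = 8 each), with log2 changes between -0.16 and 0.17 over the weeks. MiR-26 is a widely expressed miRNA that is known for restraining cell growth.

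A further 5 entries stayed within 10% of a fixed ratio to a rat row. Counts of bta-miR-26c had a median of 92.1% of those of rat miR-26a-5p (range 86.1% to 94.2%), and bta-miR-3604, whose row also carries the catfish name ipu-miR-199b, of 106% of those of rat miR-199a-3p (103% to 111%). Counts of hsa-miR-103b came to 132% of those of rat miR-103-3p (123% to 139%), hsa-miR-3184-3p to 82.7% of miR-423-5p (76.4% to 90.8%) and bta-miR-3596 to 57.6% of let-7b-5p (51.9% to 62.0%). The 6 entries followed 6 rat miRNAs, so a change of one of them is not a measurement independent of its rat row. Just outside this range, ppy-miR-151b, an orangutan name, departed by up to 10.5% from its median ratio of 48.4% to rat miR-28-3p. Its ratio to rat miR-151-5p, the miRNA of its own number, ran instead from 42.6% to 146% in 5/6Nx libraries and from 40.4% to 133% in sham libraries.

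Human miR-103b, miR-3184, miR-499b and miR-3529 and mouse miR-142b are encoded on the strand opposite to miR-103, miR-423, miR-499, miR-7 and miR-142. Whether reads were counted by strand is not given in the sources used here, so reads of such partners cannot be told apart. Against the opposite-strand rat row, hsa-miR-3529-3p had as many counts as rat miR-7a-5p (median 100%, range 70.0% to 106%), at low levels of 2 to 18 counts per library. Counts of mmu-miR-142b were 25.8% to 49.6% of those of rat miR-142-3p, a leukocyte miRNA, in 5/6Nx libraries and 14.3% to 48.7% in sham libraries. The ratio was lowest at week 7, from 14.3% to 35.7% over 4 libraries. The 3p entry of hsa-miR-499b held only 1.47% to 5.13% of the counts of rat miR-499-5p, the cardiomyocyte miRNA hosted by a myosin gene, in 5/6Nx libraries and 1.14% to 5.06% in sham libraries. This ratio was highest at week 7, from 3.87% to 5.13%. It ran from 1.54% to 2.52% at week 2, 1.78% to 1.97% at week 4 and 1.14% to 2.10% at week 5. The 5p entry of hsa-miR-499b held 5.38% to 12.1% of the counts of rat miR-499-3p in 5/6Nx and 3.90% to 8.74% in sham libraries.

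**Figure D2:**
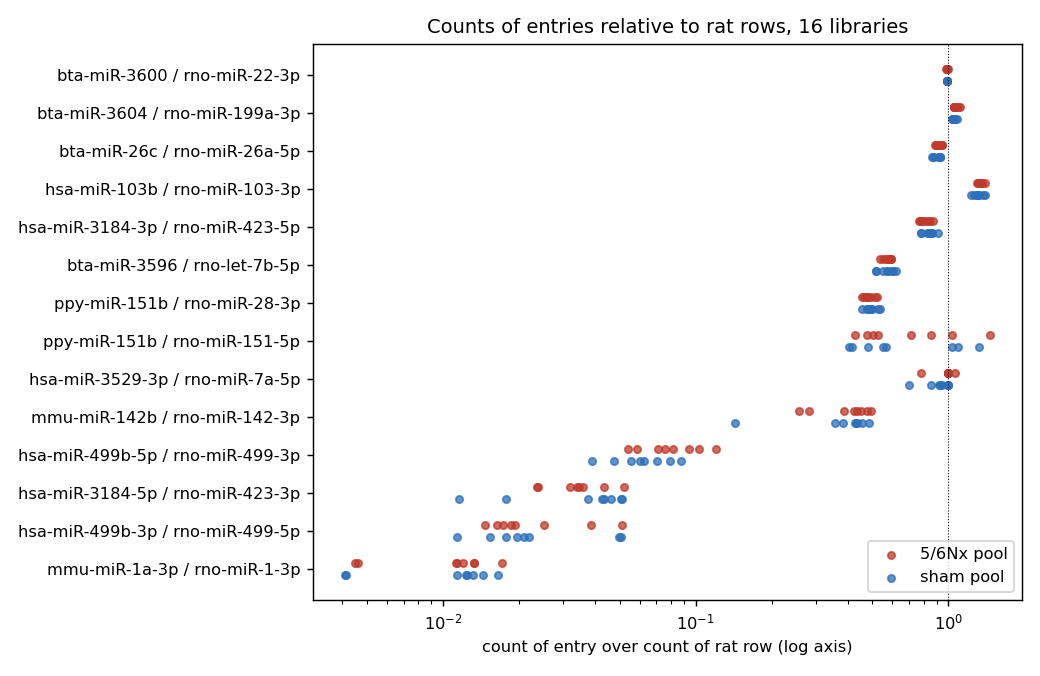
Points give the count of an entry over the count of a rat row in each of 16 libraries on a log axis, 5/6Nx pools above sham pools in each row. The upper 6 pairs, from bta-miR-3600 with rat miR-22-3p to bta-miR-3596 with rat let-7b-5p, stay within 10% of their median ratio, while ppy-miR-151b spreads from 40.4% to 146% of rat miR-151-5p.

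The entries with a rat row of the same name were scarce beside it. Counts of mmu-miR-1a-3p were 0.450% to 1.71% of those of rat miR-1-3p, the main muscle miRNA, in 5/6Nx libraries and 0.410% to 1.65% in sham libraries. They lay between 1.24% and 1.71% at week 2 and between 0.410% and 0.462% at week 7. The platypus name oan-miR-133c held 0 to 9 counts in 5/6Nx libraries and 3 to 5 in sham libraries of weeks 2, 4 and 5, and the fish name dre-miR-125a 0 to 8 and 2 to 5.

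The 7 entries that carried the name of a rat miRNA with no row of its own included one of the 5 most abundant. Hsa-miR-148a-3p, whose row joins 16 species, averaged 6292 ± 858 CPM in 5/6Nx libraries and 6577 ± 1133 CPM in sham libraries (SD, n = 8 each). Its counts were 4.54 to 13.1 times those of rat miR-148b-3p, the paralog with the same seed. Its other arm, hsa-miR-148a-5p, averaged 229 ± 45.2 CPM in 5/6Nx and 220 ± 77.2 CPM in sham libraries, where the lowest of the 8 sham libraries, week 5 pool A, had 40.9 CPM. The let-7 entry mmu-let-7g-5p averaged 27.2 ± 5.70 CPM in 5/6Nx and 25.4 ± 7.25 CPM in sham libraries, at most 0.537% of rat let-7a-5p in each library. Mmu-miR-1247-5p ran from 8.18 to 50.5 CPM in 5/6Nx libraries (median 13.8) and from 9.55 to 28.1 CPM in sham libraries (median 15.1). Mmu-miR-709, listed at weeks 2, 4 and 5 only, ran from 1.72 to 3.58 CPM in 5/6Nx libraries (median 2.38) and from 1.92 to 9.93 CPM in sham libraries (median 4.31). Its pools overlapped at week 2 and were lower in 5/6Nx at week 4, with 1.72 and 2.05 CPM in 5/6Nx, against 6.11 and 4.38 CPM in sham, and at week 5, with 3.47 and 2.69 CPM in 5/6Nx, against 3.66 and 9.93 CPM in sham. The mean log2 change of the 3 weeks was -0.88 ± 0.35 and did not pass (edgeR adjusted p = 0.485). Neither hsa-miR-148a-3p nor mmu-let-7g-5p passed the test for surgery in any week.

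For the tests, 95 of the 155 entries passed the filter on low counts and were fitted with the rat rows and loci, 458 rows in all. The test was edgeR's quasi-likelihood test with Benjamini-Hochberg adjustment over the 458 rows and a threshold of 0.05. At week 2, 0 of the 95 entries passed, as did 0% of all rows, and 10 of 95 had an unadjusted p under 0.05, against 18.1% of all rows. DESeq2 called 3 entries and limma-voom 1. Shares of all rows were counted for the main edgeR fits only, here and below. The pools did not overlap in 38 of 95 entries, against 55.2% of all rows.

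The smallest p at week 2 belonged to bta-miR-3600. It had 92295 and 93621 CPM in the 5/6Nx pools, against 138841 and 159690 CPM in the sham pools, and the groups did not overlap. The log2 change was -0.68 ± 0.17 (SE; edgeR adjusted p = 0.148), with the same value of -0.68 for rat miR-22-3p. Mmu-miR-2137 had 10.3 and 11.8 CPM in 5/6Nx, against 4.78 and 5.13 CPM in sham, a log2 change of 1.15 ± 0.38 (edgeR adjusted p = 0.161). Bta-miR-2957, bta-miR-2887, hsa-miR-103b and hsa-miR-574-3p were also higher in both 5/6Nx pools, and hsa-miR-3184-3p and hsa-miR-486-3p lower in both, with adjusted p between 0.176 and 0.239.

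At week 4, 0 of 95 entries passed in edgeR, DESeq2 or limma-voom, against 0.437% of all rows in edgeR, and 7 of 95 had an unadjusted p under 0.05, against 5.9% of all rows. The levels leaned downward: 27 of 95 entries were above sham, beside 43.4% of all rows, and the pools did not overlap in 38 of 95, against 41.9%. Their median log2 change was -0.26, beside -0.05 over all rows. Mmu-miR-3535 had 24.3 and 17.6 CPM in 5/6Nx, against 37.9 and 36.3 CPM in sham, a log2 change of -0.81 ± 0.24 (edgeR adjusted p = 0.686). Mmu-miR-1b-5p, on few reads, had 4.00 and 4.10 CPM in 5/6Nx (14 and 10 counts), against 7.95 and 7.97 CPM in sham (13 and 20 counts). The log2 change was -0.97 ± 0.35 (edgeR adjusted p = 0.686). Hsa-miR-499b-5p, mmu-miR-690 and hsa-miR-7641 were lower in both 5/6Nx pools, and mmu-miR-1983 and hsa-miR-574-3p higher in both. None of these differences passed.

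At week 5, 0 of 95 entries passed in edgeR, as did 0% of all rows, and 8 of 95 had an unadjusted p under 0.05, against 8.95% of all rows. DESeq2 called 1 and limma-voom 0. Of 95 entries, 41 were above sham, beside 48.3% of all rows, and in 35 the pools did not overlap, against 34.7%. Mmu-miR-149-5p had 690 and 632 CPM in 5/6Nx, against 403 and 403 CPM in sham, a log2 change of 0.71 ± 0.17 (edgeR adjusted p = 0.216). Mmu-miR-3535 was again lower in both 5/6Nx pools, with 21.9 and 27.4 CPM in 5/6Nx, against 44.2 and 35.3 CPM in sham (log2 change -0.69 ± 0.23, edgeR adjusted p = 0.402). Hsa-miR-3168 rested on 1 library, with 21.9 and 23.7 CPM in 5/6Nx, against 205 and 11.5 CPM in sham. The sham pools of week 5 stood apart from each other: 26 of 95 entries differed over 2-fold between them, against 3 of 95 between the 5/6Nx pools of that week. Rat rows parted in the same pools, 42 of 311 between the sham pools, against 5 of 311 between the 5/6Nx pools. The number of entries that passed at week 5 changed with which sham pool was left out, and no share of all rows was counted beside it.

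At week 7, 4 of the 95 entries passed, 2 higher and 2 lower in 5/6Nx, which is 4.21% of them beside 4.37% of all rows. By direction, 3.06% of all rows were higher and 1.31% lower. Unadjusted p was under 0.05 for 15 of 95 entries, against 19.2% of all rows, and the pools did not overlap in 47 of 95, against 52%. All 4 had no overlap between the groups.

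Hsa-miR-7704 fell. It had 27.7 and 34.2 CPM in the 5/6Nx pools (39 and 39 counts), against 89.1 and 103 CPM in the sham pools (76 and 61 counts). Both sham pools were over 2 times either 5/6Nx pool. The log2 change was -1.63 ± 0.28, 3.10-fold lower (edgeR adjusted p = 0.00723). The week 7 5/6Nx pools were below all 12 earlier libraries and the week 7 sham pools within their range, which ran from 65.2 to 110 CPM in 5/6Nx and from 58.5 to 100 CPM in sham.

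Mmu-miR-3470b fell as well, on few reads. It had 1.42 and 3.51 CPM in 5/6Nx (2 and 4 counts), against 19.9 and 22.01 CPM in sham (17 and 13 counts). The log2 change was -3.10 ± 0.73 (edgeR adjusted p = 0.0366). At week 5 the 5/6Nx pools, with 25.4 and 14.5 CPM, were also below the sham pools, with 33.3 and 54.0 CPM, while at week 2 the log2 change was 0.89.

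Mmu-miR-1983 rose. It had 33.4 and 18.4 CPM in 5/6Nx (47 and 21 counts), against 5.86 and 8.46 CPM in sham (5 counts in each). The log2 change was 1.90 ± 0.47, 3.72-fold higher (edgeR adjusted p = 0.0475). The 5/6Nx pools were above the sham pools at weeks 4, 5 and 7 and not at week 2. Its log2 changes were -0.26 at week 2, 0.83 at week 4 and 0.79 at week 5.

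Bta-miR-3604 rose by a small amount at high depth. It had 2887 and 2795 CPM in 5/6Nx, against 2106 and 2138 CPM in sham, a log2 change of 0.42 ± 0.10, or 1.34-fold (edgeR adjusted p = 0.0475). Rat miR-199a-3p, the fibroblast-rich miRNA whose counts it follows, had 2733 and 2651 CPM in 5/6Nx, against 2038 and 2043 CPM in sham. Its log2 change of 0.40 ± 0.11 did not pass (edgeR adjusted p = 0.0623), so the rows lay on either side of the threshold with nearly the same values. At week 5 bta-miR-3604 had 2415 and 2550 CPM in 5/6Nx, against 1826 and 2200 CPM in sham (edgeR adjusted p = 0.402), and at week 2 its log2 change was -0.19.

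The calls of week 7 rest on single libraries to different degrees. Without 5/6Nx pool A or without sham pool B of week 7, 0 entries passed, and 2 or fewer passed in 11 of 16 fits with 1 of the 16 libraries removed. Hsa-miR-7704 passed in 14 of these 16 fits (adjusted p 0.00478 to 0.0784, edgeR). Mmu-miR-3470b passed in 7 of 16 (0.0336 to 0.250), mmu-miR-1983 in 5 (0.0250 to 0.265) and bta-miR-3604 in 2 (0.00538 to 0.223). With the pool letter as a replicate block 2 of the 95 entries passed at week 7, and the authors' deposited table gives 0 entries with an adjusted p under 0.05 in any week and, for hsa-miR-7704 at week 7, an adjusted p of 0.110 and a log2 change of -1.66.

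**Figure D3:**
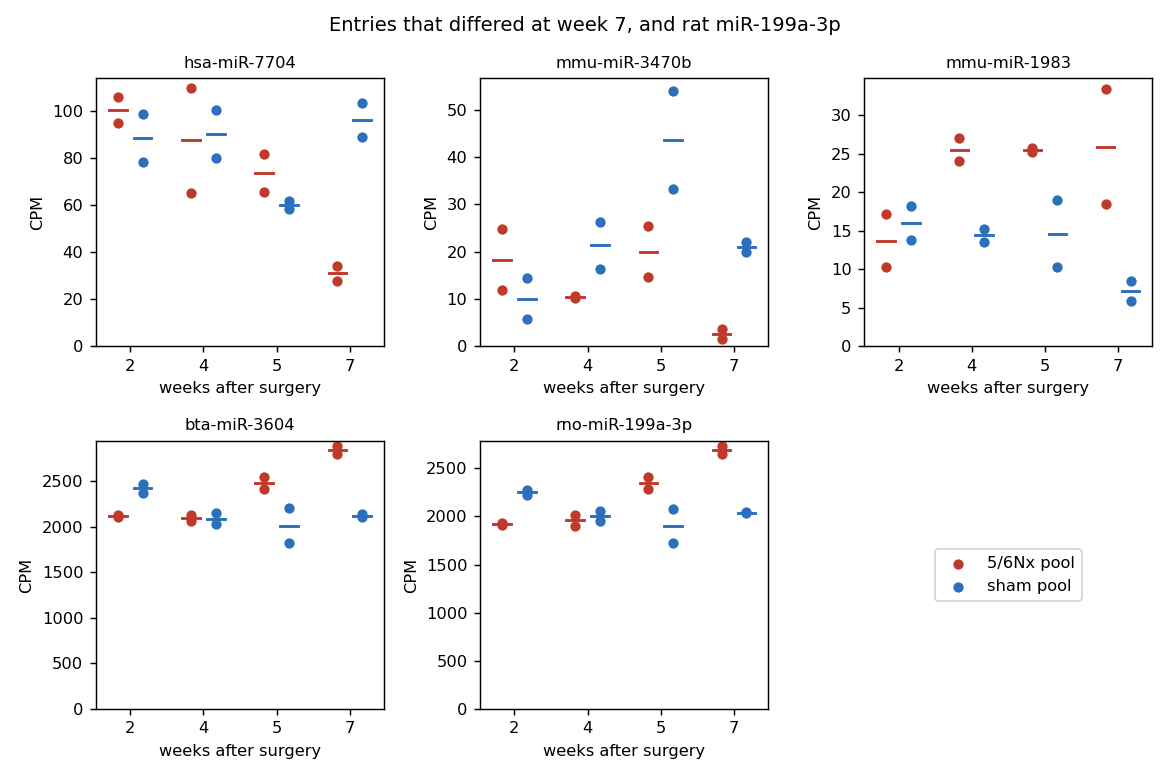
Points are pools and lines group means in CPM against weeks after surgery, 5/6Nx left of sham, for the 4 entries that passed at week 7 and for rat miR-199a-3p. At week 7 the 5/6Nx pools lie below the sham pools for hsa-miR-7704 and mmu-miR-3470b and above them for mmu-miR-1983, bta-miR-3604 and rat miR-199a-3p.

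Among entries that did not pass at week 7, gga-miR-1766 had 93.2 and 34.2 CPM in 5/6Nx, against 21.1 and 18.6 CPM in sham (log2 change 1.68 ± 0.44, edgeR adjusted p = 0.0623). Hhi-miR-7641 had 121 and 132 CPM in 5/6Nx, against 218 and 254 CPM in sham (log2 change -0.90 ± 0.26, adjusted p = 0.0799). Hsa-miR-378g, mmu-miR-1195, mmu-miR-1247-5p and mmu-let-7g-5p followed, with adjusted p from 0.137 to 0.172. Hsa-miR-4508 had 0 counts in both 5/6Nx pools, against 2 and 5 counts in the sham pools, too few for a fold change.

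**Figure D4:**
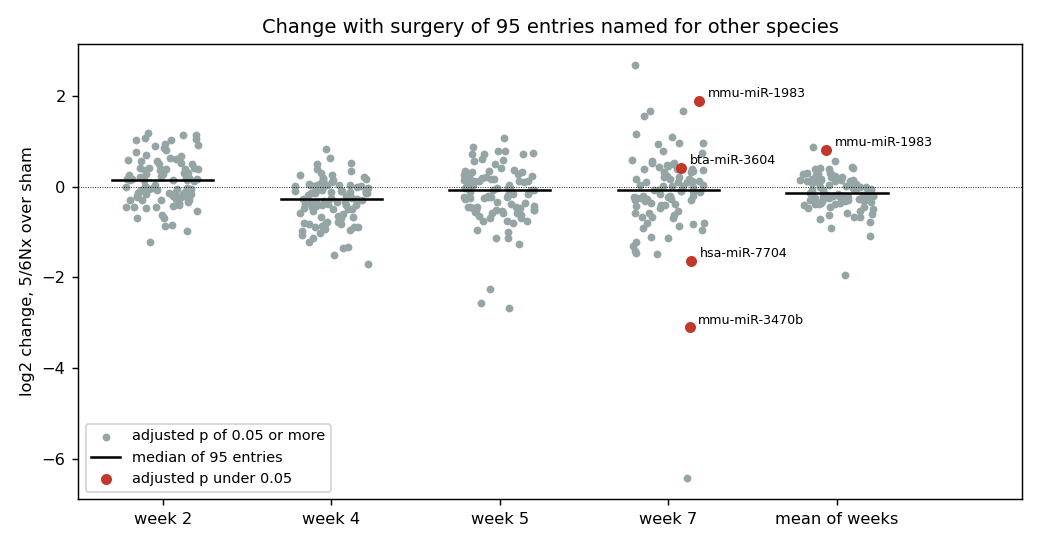
Points are the log2 changes, 5/6Nx over sham, of the 95 tested entries at weeks 2, 4, 5 and 7 and for the mean of the weekly changes; black lines are medians and red points have an adjusted p under 0.05. At week 7 mmu-miR-1983 and bta-miR-3604 lie above 0 and hsa-miR-7704 and mmu-miR-3470b below it, and the lowest grey point is hsa-miR-4508 at -6.43, fitted on 0 counts in 5/6Nx.

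For the mean of the 4 weekly changes 1 of 95 entries passed, or 1.05%, beside 3.49% of all rows. Unadjusted p was under 0.05 for 18 of 95, against 19.7% of all rows, and 36 of 95 were above sham, beside 45.6%. The entry that passed, in the higher direction like 2.62% of all rows (0.873% were lower), was mmu-miR-1983, with a log2 change of 0.81 ± 0.20 (edgeR adjusted p = 0.0498), higher in 3 of 4 weeks. With 1 library removed at a time, it passed in 4 of 16 fits. Without sham pool A or B of week 5, 4 or 8 entries passed for the mean. Mmu-miR-3470b (log2 change -1.09 ± 0.28, adjusted p = 0.0664) and mmu-miR-1b-5p (-0.66 ± 0.19, adjusted p = 0.0837) were next, and mmu-miR-1b-5p and dme-miR-10-3p were below sham in every week. The test of whether the change by surgery differed between weeks gave 0 of 95 entries in edgeR, beside 0.873% of all rows, with 14 of 95 entries under an unadjusted p of 0.05, against 15.3% of all rows. DESeq2 called 5 and limma-voom 0. The smallest adjusted p was that of hsa-miR-7704, 0.0847.

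Entries of the lists of cardiac and other miRNAs, matched on the number in the first name of each row, were few. Of the cardiomyocyte list (miR-1, miR-133, miR-206, miR-208, miR-486 and miR-499) 9 entries were present and 6 were tested: 0 passed at any week, and their median log2 change was -0.41 at week 7, beside 0.01 over all rows. The list of miRNAs of fibroblasts and hypertrophy had 1 entry, mmu-miR-199b-5p, which was not tested. The antifibrotic list had 3, of which mmu-miR-30f was tested, the leukocyte list mmu-miR-142b, and the let-7 list 2, of which mmu-let-7g-5p was tested. None of these passed for surgery. Bta-miR-3604, whose row also carries the name ipu-miR-199b, was not counted in these lists and passed at week 7 (log2 change 0.42, edgeR adjusted p = 0.0475). The lists for erythrocytes, smooth muscle, endothelium, nerve, the Dlk1-Dio3 cluster and the miR-17-92 family had 0 entries.

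Sham groups differed between weeks far more often. Over the 4 sham groups 29 of 95 entries passed, or 30.5%, beside 24% of all rows, and 45 had an unadjusted p under 0.05, against 39.7% of all rows. Without sham pool A or B of week 7 the count was 11 or 15, without sham pool B of week 4 it was 18 and without sham pool B of week 5 it was 45. Of these 29, the week 7 sham mean was above that of the other weeks in 3 and below it in 26. The 5/6Nx group means had the same sign in 28 of the 29. They are not compared in this test, although their libraries share its scaling and its estimate of spread. The week 7 5/6Nx pools lay wholly below the earlier ones in 23 and wholly above in 3. Directions and overlap by week were counted for the entries only, so they are not shown to differ from those of all rows. The week 7 table is shorter and lists other rows than the tables of weeks 2, 4 and 5, so week and table cannot be told apart there. Over the sham groups of weeks 2, 4 and 5 alone, 1 of 95 entries passed, beside 6.11% of all rows, and 18 had an unadjusted p under 0.05, against 25.8%. Without sham pools A or B of week 5 that count was 12 or 16.

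That entry was mmu-miR-149-5p. It had 760 and 994 CPM in 5/6Nx, against 796 and 1034 CPM in sham, at week 2, and 455 and 488 CPM in 5/6Nx, against 416 and 491 CPM in sham, at week 4. At week 7 it had 286 and 250 CPM in 5/6Nx, against 231 and 227 CPM in sham, the lowest of the 4 weeks. The adjusted p over the sham groups was 0.000229 for 4 weeks and 0.00757 for 3 weeks in edgeR.

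Hsa-miR-486-5p, a miRNA of muscle and red cells known for lowering inhibitors of growth signalling, was the most abundant of the 29. Its week 2 level was 32167 and 37072 CPM in 5/6Nx, against 36471 and 33037 CPM in sham. Its week 7 level was 187437 and 215312 CPM in 5/6Nx, against 274207 and 250331 CPM in sham. Both sham pools of week 7 were above both 5/6Nx pools, and all 4 were above every earlier library, the highest of which was week 5 sham pool A with 94525 CPM. The sham groups differed (edgeR adjusted p = 0.000472), and surgery at week 7 did not pass (log2 change -0.38 ± 0.29, adjusted p = 0.570). The other arm did not follow: hsa-miR-486-3p had 166 and 155 CPM in 5/6Nx, against 210 and 223 CPM in sham, at week 7, and 184 and 133 CPM, against 191 and 240 CPM, at week 2. Rat miR-451-5p, a red cell miRNA, had 270 and 201 CPM in 5/6Nx, against 287 and 223 CPM in sham, at week 7. In the earlier weeks miR-451-5p ran from 161 to 624 CPM in 5/6Nx and from 178 to 396 CPM in sham libraries, and the sham groups of 4 weeks did not pass (edgeR adjusted p = 0.516). Rat miR-144, made from the same transcript, was higher in part: miR-144-5p had 49.8 and 60.6 CPM in 5/6Nx, against 77.3 and 47.4 CPM in sham, at week 7. In earlier weeks miR-144-5p ran from 21.7 to 60.6 CPM in 5/6Nx libraries and from 21.95 to 46.8 CPM in sham libraries, so both week 7 sham pools were above the earlier sham libraries, while the 5/6Nx pools overlapped the earlier ones. MiR-144-3p had 64.7 and 62.3 CPM in 5/6Nx, against 91.4 and 40.6 CPM in sham, at week 7, within or overlapping the earlier levels. Over the sham groups the adjusted p was 0.213 for miR-144-5p and 0.231 for miR-144-3p (edgeR). Rat miR-191a-5p was also higher at week 7, with 46325 and 49284 CPM in 5/6Nx, against 50168 and 41765 CPM in sham. In earlier weeks miR-191a-5p ran from 12298 to 35684 CPM in 5/6Nx and from 9507 to 34585 CPM in sham libraries. Its 4 sham groups differed (edgeR adjusted p = 0.0333). The part of red cells in the level of hsa-miR-486-5p was not tested.

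Gga-miR-1766, a chicken name, went the other way. It ran from 574 to 874 CPM in 5/6Nx libraries and from 596 to 1097 CPM in sham libraries of weeks 2, 4 and 5, and had 93.2 and 34.2 CPM in 5/6Nx, against 21.1 and 18.6 CPM in sham, at week 7 (adjusted p over sham groups 0.000229, edgeR). Hsa-miR-7641 had 20.6 and 16.7 CPM in 5/6Nx, against 15.2 and 22.01 CPM in sham, at week 7, and at least 63.2 CPM in every earlier library. Hsa-miR-3529-3p and hsa-miR-499b-3p, both opposite-strand names, were the other entries higher at week 7, at 12.1 and 14.9 CPM in 5/6Nx, against 9.37 and 20.3 CPM in sham, for hsa-miR-3529-3p.

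**Figure D5:**
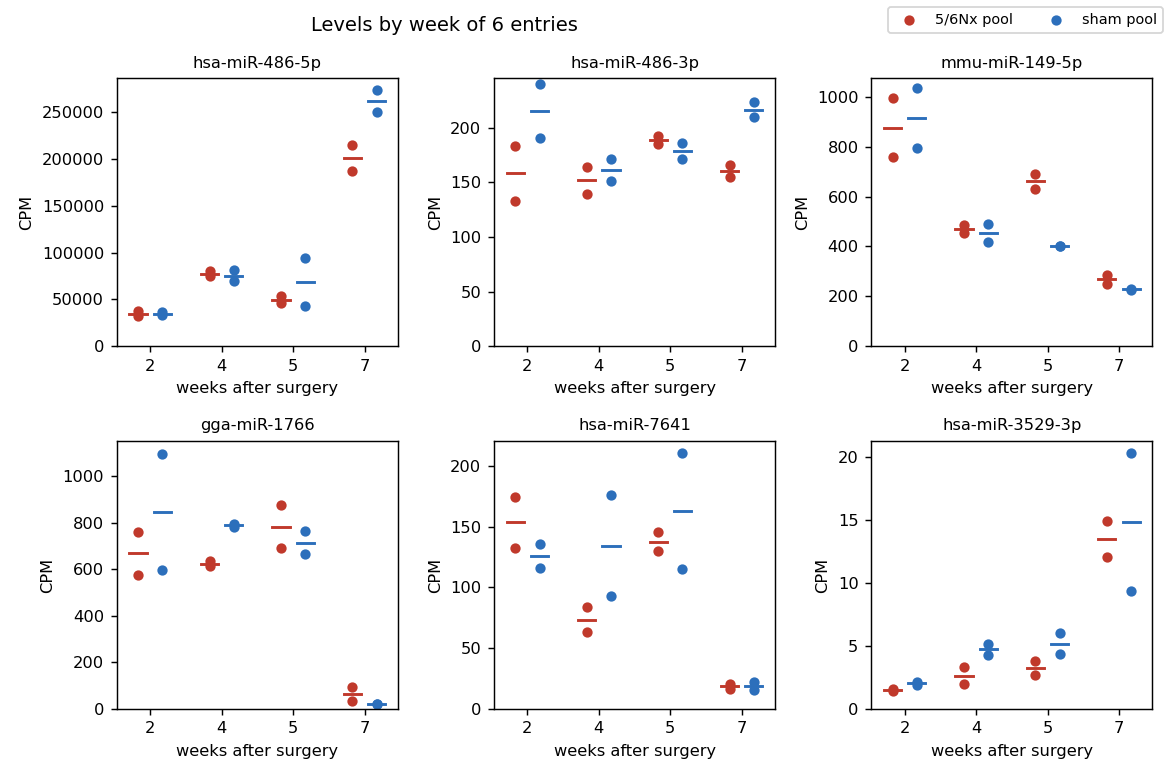
Points are pools and lines group means in CPM against weeks after surgery, 5/6Nx left of sham, for 6 entries. Hsa-miR-486-5p and hsa-miR-3529-3p are highest at week 7, mmu-miR-149-5p, gga-miR-1766 and hsa-miR-7641 are lowest there, and hsa-miR-486-3p shows no such step.

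Several abundant names with no rat row varied strongly between libraries. Bta-miR-2340 ran from 3301 to 22145 CPM in 5/6Nx libraries (median 5216) and from 2269 to 14199 CPM in sham libraries (median 5258). At week 2 it had 22145 and 9881 CPM in 5/6Nx, against 14199 and 2647 CPM in sham, and the groups overlapped. The platypus name oan-miR-1386 ran from 202 to 803 CPM in 5/6Nx (median 488) and from 161 to 1056 CPM in sham libraries (median 471). These spans cover all 4 weeks, so they hold differences between weeks as well as between pools. At week 2 oan-miR-1386 had 427 and 462 CPM in 5/6Nx, against 550 and 393 CPM in sham. At week 7 it had 202 and 220 CPM in 5/6Nx, against 161 and 349 CPM in sham. Hsa-miR-1303 had 3300 CPM in week 4 sham pool A and 3319 CPM in week 5 sham pool A, while all other libraries had at most 1537 CPM. Hsa-miR-1273g-3p stood out in the same pools with 2901 and 2736 CPM, against at most 1083 CPM elsewhere, and cgr-miR-1285 with 837 and 1158 CPM, against at most 576 CPM. That these 3 were high in the same pools was noticed after their values were seen. Between pools of a group the entries spread more widely than rat rows did: the median fold between pools was 1.17 to 1.31 for entries and 1.10 to 1.16 for rat rows in the 5/6Nx groups, and 1.25 to 1.43 for entries and 1.13 to 1.34 for rat rows in the sham groups. The entries were also lower in level, with a median of 25.4 CPM beside 54.9 CPM for rat rows. Rows were not matched on level, so the wider spread is not shown to go with the names.

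Of the 51 entries listed at weeks 2, 4 and 5 only, 29 passed the filter and were fitted with 788 rows of 12 libraries. None passed at week 2 (0 of 29, beside 0.381% of all rows), week 4 (0 of 29, beside 0% of all rows) or week 5 (0 of 29, beside 0.381% of all rows), or for the mean of 3 weeks (0 of 29, beside 0.508% of all rows), with edgeR, DESeq2 or limma-voom. Unadjusted p was under 0.05 for 1 of 29 at week 2 (12.8% of all rows), 3 at week 4 (3.68%), 2 at week 5 (7.11%) and 5 for the mean (9.64%). The smallest adjusted p was that of mmu-miR-1a-1-5p, the other arm of miR-1, at week 2, on few reads. It had 10.3 and 7.67 CPM in 5/6Nx (15 and 15 counts), against 2.65 and 2.57 CPM in sham (5 and 8 counts). The log2 change was 1.76 ± 0.29 (edgeR adjusted p = 0.0571). At week 5 it was lower in both 5/6Nx pools, at 2.78 and 2.42 CPM (8 and 9 counts), against 4.99 and 5.16 CPM in sham (15 and 13 counts). The log2 change there was -0.95 ± 0.28 (edgeR adjusted p = 0.702). Few lay above sham after week 2: 14 of 29 at week 2 (48.7% of all rows), 2 at week 4 (42%), 6 at week 5 (45.2%) and 4 for the mean (42.3%). Hsa-miR-3607-5p was the most abundant of the 51, at 23.5 CPM on average, and the median was 3.12 CPM.

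Virus names were at low levels throughout. Hsv1-miR-H17 had 45 to 85 counts in 5/6Nx libraries and 34 to 84 in sham libraries of weeks 2, 4 and 5, and hhv6b-miR-Ro6-1-3p had 25 to 72 and 27 to 93 counts. Blv-miR-B3-3p and hcmv-miR-US25-1-3p had at most 22 counts in any library. Of the plant names, ath-miR5658 had 7 to 22 counts in 5/6Nx and 6 to 16 in sham libraries, and the other 3 had at most 40 counts. These counts carry the names in the tables and do not show that the organisms were present. The 6 entries listed at week 7 only, among them spu-miR-183 and oan-miR-30f, had 0 to 13 counts per library.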

How the data were processed

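Small RNA libraries were made from pools of left ventricle RNA with a TruSeq kit, per the labels' protocols. Cutadapt, Bowtie and DESeq appear in the submitters' processing notes, with no versions. Genome build, miRNA annotation, strand use and the counting of shared reads: not given in the sources used here. The deposited tables hold raw read counts, 1 table per week, not normalized. The authors' p-values and log2 fold changes stand in the same deposited tables. A table of mapping rates was not used here. The authors' values are printed only where named.

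Members and lists were chosen with earlier results of these data known. Rows listed in all 4 tables were fitted over 16 libraries with edgeR 4.0.16 in R 4.3.3, with a mean for each of 8 groups, TMM scaling of the 317 rat rows and a minimum count of 10. P-values were adjusted over all 458 rows, of which 95 were entries of other species, 311 rat miRNAs and 52 loci. Rows absent at week 7 were fitted on 12 libraries. Tests are two-sided, and the SE is the change over the root of the F value. Nothing says that the pools of a group came from separate cohorts, so a p-value speaks of the spread among pools, which may be technical. On simulated counts for week 7, 197 of 200 changed rows were recovered, at a median log2 size of 2.00, with 5 of 161 unchanged rows called. The simulated spread was below the common dispersion of 0.125 that edgeR fitted to the 16 libraries, and rows of low mean count were left out. Smaller changes were not simulated, so the power of the tests on these data was not measured.

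An entry was paired with a rat row when its count ratio stayed within 10% of the median in all libraries, among rat rows averaging at least 50 counts. Entries were named by rule: up to 10 per direction among those that passed with no overlap between pools, filled to 5 with the smallest p, plus the 10 most abundant, the 10 most abundant with no rat row of the number, same-name entries, and the 10 most abundant of weeks 2, 4 and 5. DESeq2 1.42.0 and limma 3.58.1 were alternatives.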

Additional observations from a re-analysis of the deposited data

Results flagged for a closer look

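The worm miRNA name cel-miR-39-3p lies outside the entries described and was not used in any comparison. It had 870 counts in the 5/6Nx pool B of week 2 and 40 to 98 counts in the other 5 libraries of 5/6Nx of weeks 2, 4 and 5, against 41 to 65 counts in the 6 sham libraries. The pool with 870 counts drew attention. In raw counts, 5/6Nx pool A of week 4 with 73 and 5/6Nx pool A of week 5 with 98 were also above every sham library. These pools were deeper, with 3509916 and 2822506 counts on rat rows, against at most 2795801 in the sham libraries. The 5/6Nx pool A of week 2 had 59 counts beside 1239829 on rat rows. Raw counts are not scaled to depth, so they do not rank the pools by level. The week 7 table was searched and has no row of that name. Whether a spike-in was added is not given in the sources used here.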

How the results depend on the processing

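Of 1274 values of the 50 named changes under alternatives, 1183 kept their direction and their side of the threshold, 64 lost a call, 26 gained one and 1 changed direction: hsa-miR-3168 at week 5 ran from -3.17 (without sham pool B of week 5) to 0.98 (without sham pool A of week 5), as a log2 change. RLE scaling and leaving out rat rows at a fixed ratio moved no count of calls by over 1.5 times. Calls under alternatives were counted for the entries only, with no share of all rows beside them. DESeq2 gave 3 entries at week 2, 1 at week 5, 7 at week 7, 4 for the mean, 5 for the difference between weeks and 11 over sham weeks 2, 4 and 5. Limma-voom gave 1 at week 2, 1 at week 7, 0 for the mean and 4 over sham weeks 2, 4 and 5. Without loci 1 passed at week 2, 2 for the mean and 5 over those sham weeks. TMM over all rows gave 2 at week 7 and 0 for the mean. With no filter 0 passed for the mean, and with a minimum count of 50, 3 over those sham weeks. A fit of the 4 libraries of week 7 alone gave 1.

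With the pool letter as a replicate block, 2 passed at week 7 and 0 for the mean, and no other count moved by over 1.5 times. The letters are shared and not a stated pairing: the correlation over rows of the A minus B difference in 5/6Nx with that in sham was 0.462, 0.689, 0.227 and 0.0536 at weeks 2, 4, 5 and 7.

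Leaving out 1 library at a time gave 0 to 2 entries at week 2, 0 to 8 at week 5, 0 to 4 at week 7, 0 to 8 for the mean, 0 to 7 for the difference between weeks, 11 to 45 over sham weeks, 0 to 16 over sham weeks 2, 4 and 5 (0 without week 2 sham pool B, 12 and 16 without week 5 sham pools A and B), and 0 to 1 at week 5 for rows of weeks 2, 4 and 5. The lone pool left is assumed to vary like the other groups. The test over 3 sham weeks, chosen after seeing the data, gave 1. A tolerance of 5% left 1 entry at a fixed ratio, and 20% gave 9. Counting rat rows of the same number and letter gave 10 entries with a counterpart, and of the same number 33. Summed counts had a median of 15.1% of rat counts without bta-miR-3600, and 31.9% with it. The causes were not tested.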
